A study of Mus musculus with 12 samples.

Results

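The plasma carrier proteins described here are 10 genes of the 48576 gene symbols listed in each count table: Alb, Ttr, Rbp4, Trf, Gc, Ahsg, Fetub, Serpina6, Serpina7 and Shbg. They were chosen by gene symbol, with measured values of these libraries in view: Shbg is in the list because its counts were high in the MYC livers. The level of Shbg and its difference between groups are therefore a description, with no test. The other 9 were named as carriers that hepatocytes make and release into the blood. Tests were made on those 9.

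Liver RNA of mice was sequenced in 12 libraries of 5 groups. The YAP model carried Col-TRE-YAPS127A and Rosa26-LSL-rtTA. These animals received AAV-TBG-Cre, a virus whose TBG promoter drives Cre in hepatocytes, at 8 to 10 weeks of age, and doxycycline then switched on YAPS127A, a form of YAP that escapes inactivation by phosphorylation. Livers were taken after 2 weeks (n = 2) or 4 weeks (n = 3) of induction. YAP controls (n = 2) had the same alleles and no induced YAPS127A, and the labels do not say whether they received the virus. The MYC model carried LAP-tTA, in which a liver promoter drives the transactivator, together with TRE-MYC. MYC was switched on from about embryonic day 8, when doxycycline was withdrawn from the mothers, and livers were collected 4 weeks after birth (n = 3). MYC controls (n = 2) carried LAP-tTA alone and had the same doxycycline schedule. MYC and YAP livers therefore differ in age as well as in transgene. The labels name hepatocytes as the cell type, while the protocol extracts RNA from total liver, so fewer hepatocytes and less RNA per hepatocyte cannot be told apart. They do not say that libraries of a group came from separate animals, so p-values measure the spread between these samples.

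Totals lay between 12511170 and 17690798 counts per library, and the 10 carriers held 2.45% to 8.13% of them. Levels are given in CPM, counts scaled to a common library size with TMM, which sets the bulk of genes to a common level. In the 9 summed hepatocyte markers (Alb and Ttr among them) YAP controls lay at 82104 to 95724 CPM, 2-week YAP livers at 70188 to 89515, 4-week YAP livers at 34521 to 73034, MYC livers at 30499 to 57522 and MYC controls at 111467 to 114051. Mouse Yap1 counts did not separate the YAP livers (65.6 to 87.4 CPM) from their controls (81.2 to 86.5 CPM), and the labels do not give the species of the transgene. Ankrd1, a known YAP target, was at 30.6 to 236 CPM in all 5 YAP livers and at most 0.637 CPM in their controls. Mouse Myc was at 22.2 to 31.4 CPM in MYC livers and 6.71 to 15.5 CPM in their controls. In the YAP model it was at 105 to 107 CPM after 2 weeks, 64.8 to 117 CPM after 4 weeks and 8.17 to 53.2 CPM in controls. Every YAP liver thus lay above every MYC liver in mouse Myc. Whether reads of the MYC transgene are counted as mouse Myc was not tested, so these counts do not rank total MYC between the models. Library 1 of the 4-week group stood apart, with 396 CPM of 5 summed cholangiocyte markers against 3010 and 3074 in the other 2 libraries. The female marker Xist was at 1748 to 2390 CPM in library 2 of the 2-week group and in all 4-week libraries and at most 10.3 CPM elsewhere. Sex pattern and 4 weeks of YAP therefore cannot be told apart, and only library 1 of the 2-week group shares the pattern of the YAP controls. Skeletal muscle markers summed to 433 and 471 CPM in the 2-week livers and to at most 19.2 CPM elsewhere.

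Carrier proteins bind hormones, vitamins, metals and fatty acids in plasma and set how much of each ligand circulates free. Hepatocytes make most of them, under transcription factors such as HNF4A, the FOXA family and C/EBP alpha, and several of them fall in inflammation. Sex hormone-binding globulin, the product of Shbg, is a special case in rodents: the fetal liver makes it, the adult liver does not, and the testis makes a related form.

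The genes sit on several chromosomes (GENCODE vM21 coordinates on GRCm38). Gc (chr5:89417522-89457898) and Alb (chr5:90460897-90476602) lie in the albumin cluster, in which Afp follows Alb after 14.1 kb. Ahsg (chr16:22891277-22899449) and Fetub (chr16:22918334-22939778) are neighbours 18.9 kb apart. Serpina6 (chr12:103646630-103657212) lies in a cluster of serpins, and Serpina7 (chrX:139079257-139085236) lies apart from it on the X chromosome. Shbg is at chr11:69614804-69617905, Trf at chr9:103204001-103230444, Rbp4 at chr19:38116629-38125281. Trf shares 2108 of its 3320 exon bases (63.5%) with Gm20425, a gene model that reads through from Trf into Srprb and is listed at 0 in all 12 libraries. How reads in shared bases were counted is not given in the sources used here, so Trf counts are uncertain.

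Promoter windows from RefSeq (GRCm38.p6, 250 bases before and 50 after a start site) were listed for 7 of the 10 genes. The 4 windows below belong to Shbg, which was high in MYC livers, and to Alb, Gc and Fetub, which were lower there. They are shown 5′ to 3′ on the strand of the gene, at chr11:69617856-69618155 (minus strand), chr5:90460620-90460919 (plus), chr5:89457849-89458148 (minus) and chr16:22918132-22918431 (plus). Capitals mark matches, on either strand, to the motifs searched.
Shbg: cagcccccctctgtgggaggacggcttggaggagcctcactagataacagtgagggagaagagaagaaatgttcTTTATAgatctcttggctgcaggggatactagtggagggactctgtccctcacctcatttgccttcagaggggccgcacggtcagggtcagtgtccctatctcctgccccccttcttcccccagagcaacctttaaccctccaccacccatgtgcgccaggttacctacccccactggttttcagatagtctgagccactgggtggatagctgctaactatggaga
Alb: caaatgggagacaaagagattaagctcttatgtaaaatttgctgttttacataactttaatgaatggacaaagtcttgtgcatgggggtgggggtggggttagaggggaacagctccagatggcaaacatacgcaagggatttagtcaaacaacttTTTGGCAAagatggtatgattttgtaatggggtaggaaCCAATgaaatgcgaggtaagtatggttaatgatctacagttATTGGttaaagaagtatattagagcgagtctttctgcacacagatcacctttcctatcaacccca
Gc: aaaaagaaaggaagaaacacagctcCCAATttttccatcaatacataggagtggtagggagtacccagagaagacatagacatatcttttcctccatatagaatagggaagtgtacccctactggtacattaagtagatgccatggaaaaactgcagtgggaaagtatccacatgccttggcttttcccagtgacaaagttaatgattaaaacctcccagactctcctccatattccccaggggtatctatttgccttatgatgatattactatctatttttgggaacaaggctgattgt
Fetub: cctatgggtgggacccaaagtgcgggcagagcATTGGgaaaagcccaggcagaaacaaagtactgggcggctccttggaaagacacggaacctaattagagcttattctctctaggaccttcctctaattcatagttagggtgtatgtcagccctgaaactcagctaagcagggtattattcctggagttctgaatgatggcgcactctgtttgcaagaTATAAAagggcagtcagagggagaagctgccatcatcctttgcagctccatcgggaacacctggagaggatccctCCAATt
The motifs were the E-box CACGTG bound by MYC, GGAATG bound by TEAD factors with which YAP acts, CAAAGTCCA for HNF4A, TTGCNNAA for C/EBP factors, CCAAT and TATAAA. No window of the 7 genes held CACGTG, which 7.15% of 32851 promoter windows hold, or CAAAGTCCA, which 0.475% hold. GGAATG (14.7% of windows) was found in Serpina7 alone. TATAAA (13.6% of windows) was found in 4 of the 7 genes, TTGCNNAA (10.8%) in 4 and CCAAT (37.4%) in 5. A gene was counted if any of its windows held the motif, and Fetub, Rbp4 and Serpina7 had 2 windows each. Counts per gene are therefore not on the same footing as shares per window. In the Shbg window the 1 match was TATAAA on the opposite strand, 176 bases before the start site. Alb had CCAAT 56 bases before its start and TTGCNNAA 94 bases before it, and Fetub had TATAAA 31 bases before its start. These matches describe letters in the windows and are not evidence of binding.

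Tests used edgeR's quasi-likelihood model over all 12 libraries with Benjamini-Hochberg adjustment over 17964 genes, and a gene was called higher or lower at an adjusted p under 0.05. After 2 weeks of YAP, Ttr was lower and none of the other 8 tested carriers passed; 15.1% of all genes were called higher and 12.7% lower. After 4 weeks, Ttr and Fetub were lower and none was higher, against 18.1% of all genes called higher and 15.7% lower. In MYC livers, Alb, Gc and Fetub were lower and none of the 9 was higher, against 9.76% called higher and 8.56% lower. The median log2 fold change of the 9 carriers was -0.31 after 2 weeks, -0.57 after 4 weeks and -0.89 with MYC, beside 0.10, 0.18 and 0.02 for all genes. With scaling to total counts in place of TMM, the medians of the 9 carriers were 0.19, 0.14 and -0.50, above 0 at both YAP times, beside all-gene medians of 0.64, 0.91 and 0.43, and the calls over all genes, higher and lower, went from 2716 and 2277 to 5228 and 979 after 2 weeks, from 3253 and 2820 to 7863 and 897 after 4 weeks, and from 1754 and 1537 to 3277 and 743 with MYC. Carrier values are therefore read relative to the bulk of genes. Statements below that groups did not overlap describe 2 or 3 libraries per group. The share of all genes that separate in this way was not counted.

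**Figure D1:**
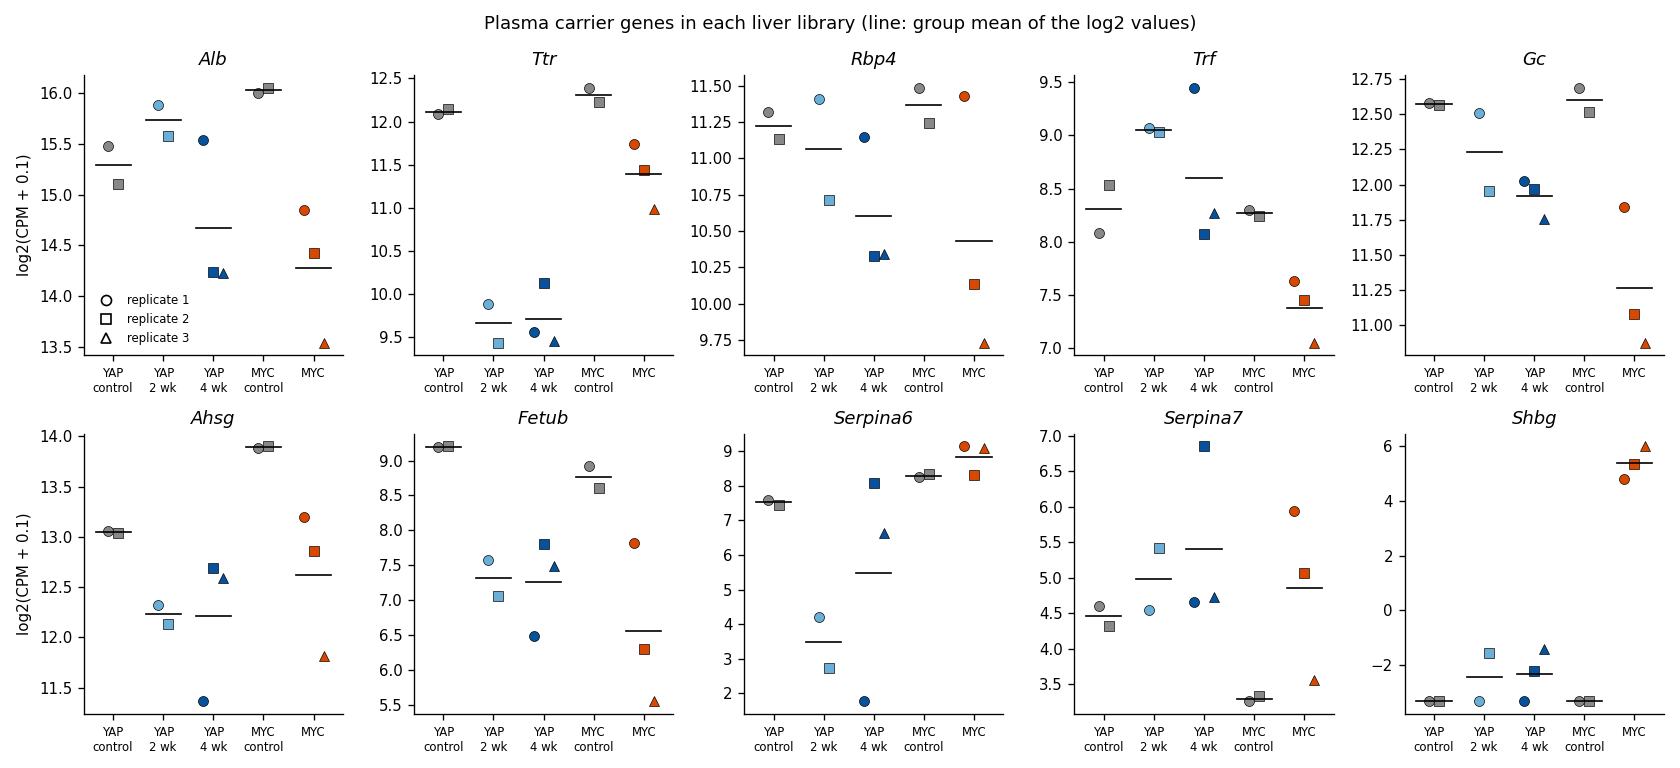
Level of each carrier gene in the 12 libraries, as log2(CPM + 0.1) on a separate vertical axis for each gene; symbols give the replicate, colours the group and lines the mean of the log2 values of a group. Ttr lies at 694 to 1117 CPM in all 5 YAP livers and at 2023 CPM or more elsewhere, and Shbg exceeds 0.278 CPM only in the 3 MYC livers (27.3 to 63.2 CPM).

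**Figure D2:**
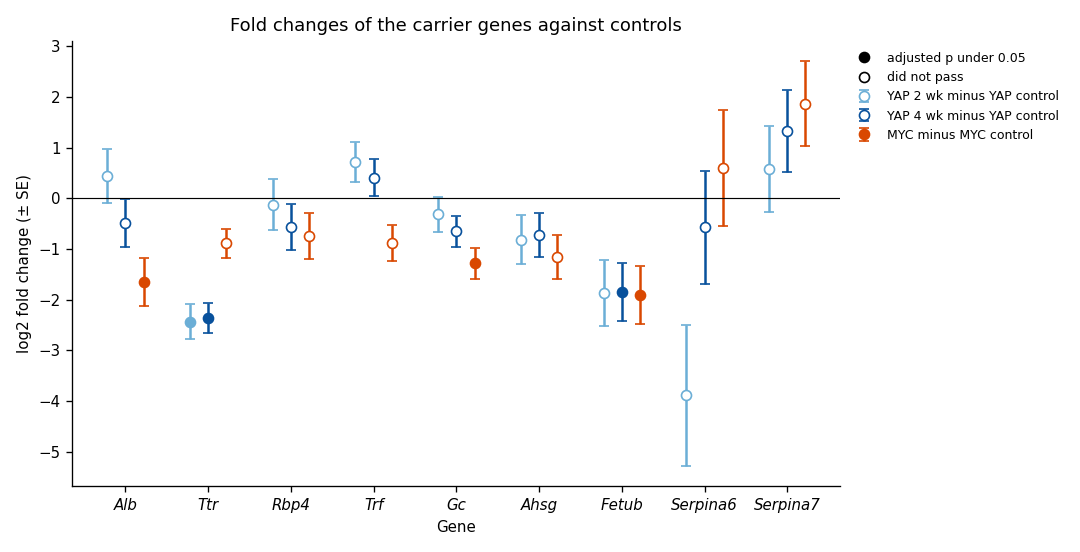
Log2 fold change of 9 carrier genes against the matching controls, with standard errors as bars; filled points passed an adjusted p of 0.05. Ttr was lower at both YAP times, Fetub was lower after 4 weeks of YAP and with MYC, and Alb and Gc were lower with MYC.

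Ttr and Rbp4 travel together in plasma: transthyretin carries thyroxine and holds retinol-binding protein, the carrier of retinol from liver to other tissues, in a complex too large for the kidney to filter. Ttr stood at 4340 and 4532 CPM in YAP controls, 947 and 694 CPM after 2 weeks, 758, 1117 and 702 CPM after 4 weeks, 3415, 2783 and 2023 CPM in MYC livers and 5383 and 4781 CPM in MYC controls. Every YAP liver was below every other library, and MYC livers lay between the YAP livers and the controls without overlap. Ttr fell by 2.43 ± 0.34 (log2, SE) after 2 weeks (adjusted p = 0.000633), a 5.41-fold lower level. After 4 weeks it fell by 2.37 ± 0.30 (adjusted p = 0.000267). These calls held under every alternative run, with adjusted p up to 0.00996 and 0.00347. Without library 2 of the 2-week group, which leaves the library with the sex pattern of the controls, the 2-week value was -2.22 (a group of 1 library, assumed here and below to vary like the other groups), and without library 1 of the 4-week group the 4-week value was -2.29. In MYC livers the log2 difference was -0.89 ± 0.29, which did not pass (adjusted p = 0.0553, and 0.0133 to 0.256 over the alternatives).

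Rbp4 showed no such step. It stood at 2559 and 2242 CPM in YAP controls, 2718 and 1682 CPM after 2 weeks, 2267, 1283 and 1295 CPM after 4 weeks, 2754, 1125 and 850 CPM in MYC livers and 2871 and 2428 CPM in MYC controls. Values overlapped between each induced group and its controls, and none of the 3 differences passed (-0.13, -0.57 and -0.75, adjusted p = 0.880, 0.358 and 0.283). Scaled to total counts, the YAP differences were 0.38 and 0.14, above 0. Within a library, Ttr counts were 1.70 and 2.02 times Rbp4 counts in YAP controls, 0.349 and 0.413 times after 2 weeks, and 0.334 to 0.870 times after 4 weeks. The ratio was 1.24 to 2.47 in MYC livers and 1.88 and 1.97 in MYC controls. Ratios within a library do not depend on scaling, and here the YAP livers lay below all others.

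**Figure D3:**
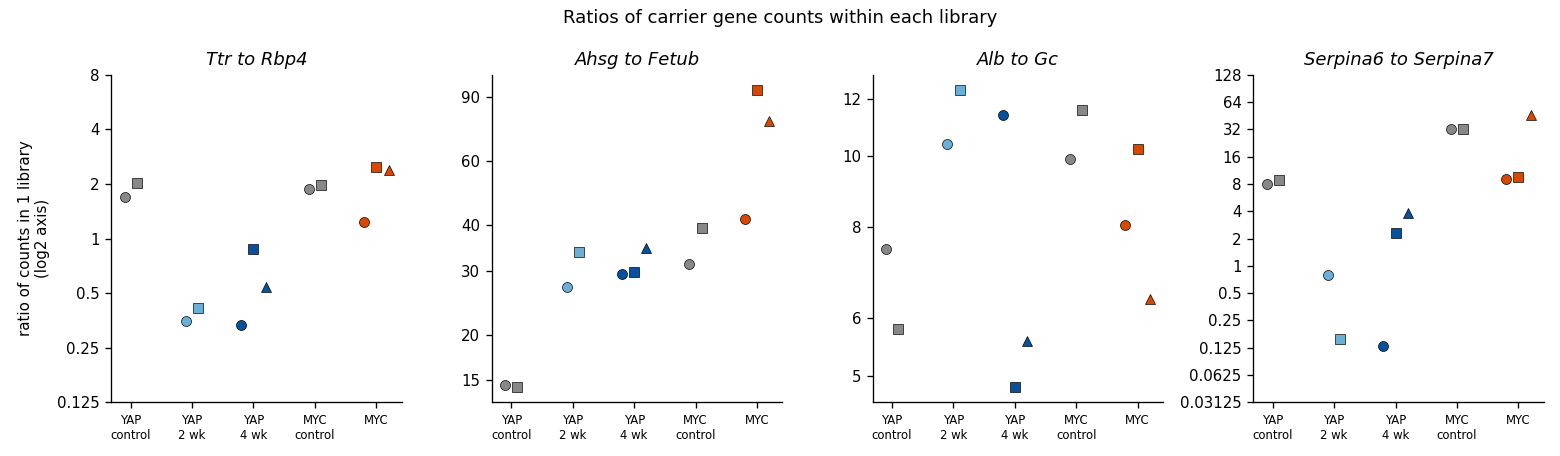
Ratio of counts of 4 pairs of carrier genes within each library, on log2 axes that differ between panels; symbols give the replicate and colours the group. The Ttr to Rbp4 ratio lies at 0.334 to 0.870 in YAP livers and at 1.24 to 2.47 elsewhere, and the Ahsg to Fetub ratio lies lowest in the YAP controls (14.3 and 14.6).

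Alb encodes albumin, the main protein of plasma and a carrier of fatty acids, bilirubin and many drugs. Per kb of exon it had the highest level of the 10 genes in every group, with 17236 CPM per kb in YAP controls against 3863 for Ahsg, 3741 for Ttr and 3301 for Gc. Alb stood at 45606 and 35125 CPM in YAP controls, 60524 and 48881 CPM after 2 weeks and 47397, 19315 and 19269 CPM after 4 weeks. Both 2-week livers were above both controls, and 1 of the 3 4-week livers, the library with few cholangiocyte markers, was above the controls while the other 2 were below them. MYC livers stood at 29474, 22075 and 11948 CPM and MYC controls at 65515 and 67979 CPM, with no overlap. Alb was lower in MYC livers by a log2 fold change of -1.66 ± 0.47 (adjusted p = 0.0320), a 3.15-fold lower level. The YAP differences were 0.44 ± 0.52 after 2 weeks (adjusted p = 0.568) and -0.49 ± 0.47 after 4 weeks (adjusted p = 0.446). Without library 1 the 4-week difference was -1.07 and did not pass, and scaled to total counts it was 0.20.

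Gc encodes the vitamin D-binding protein, which also clears actin from plasma. It stood at 6113 and 6070 CPM in YAP controls, 5833 and 3962 CPM after 2 weeks, 4159, 4009 and 3456 CPM after 4 weeks, 3659, 2159 and 1878 CPM in MYC livers and 6608 and 5865 CPM in MYC controls. Each induced group lay wholly below its controls. The log2 fold change with MYC was -1.28 ± 0.31 (adjusted p = 0.0166), a 2.43-fold lower level. After 2 and 4 weeks of YAP it was -0.31 and -0.65 (adjusted p = 0.529 and 0.125), and 0.19 and 0.08 when scaled to total counts. The calls of Alb and Gc with MYC rest on few libraries: both were lost without MYC library 2, MYC library 3 or either MYC control, with adjusted p between 0.0918 and 0.136 for Alb and between 0.0545 and 0.118 for Gc.

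Trf encodes transferrin, the iron carrier of plasma. It stood at 272 and 372 CPM in YAP controls, 538 and 522 CPM after 2 weeks, 700, 270 and 309 CPM after 4 weeks, 199, 175 and 133 CPM in MYC livers and 316 and 303 CPM in MYC controls. The 2-week livers lay above their controls and the MYC livers below theirs, without overlap. No difference passed: 0.72 after 2 weeks (adjusted p = 0.196), 0.41 after 4 weeks (0.412) and -0.88 with MYC (0.109). Scaled to total counts, the YAP differences were 1.26 and 1.10 and passed (adjusted p = 0.0137 and 0.0131), and without library 1 the 4-week difference under TMM was -0.15. With MYC set against 4 weeks of YAP, the fold changes of Trf differed by -1.28 ± 0.51 (adjusted p = 0.150). Srprb, the other gene in the read-through model, stayed near 7.40 to 8.58 CPM in the group means. Alb counts were 62.3 to 71.6 times Trf counts in the 4-week livers, including the library that stood apart, against 93.6 or more in the other YAP model libraries and 90.2 or more in the MYC model.

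Ahsg and Fetub encode fetuin-A and fetuin-B; the former keeps calcium phosphate soluble in plasma and the latter inhibits proteases that harden the egg coat. Ahsg stood at 8536 and 8438 CPM in YAP controls, 5127 and 4493 CPM after 2 weeks, 2631, 6622 and 6179 CPM after 4 weeks, 9378, 7413 and 3612 CPM in MYC livers and 15123 and 15295 CPM in MYC controls. All induced livers were below their own controls, and no difference passed (-0.82, -0.72 and -1.16, adjusted p = 0.228, 0.217 and 0.0833); the 4-week value was 0.05 when scaled to total counts. Ahsg averaged 15209 ± 122 CPM in MYC controls and 8487 ± 69.0 CPM in YAP controls (SD, n = 2 each), and no test was made between these groups.

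Fetub stood at 587 and 589 CPM in YAP controls, 190 and 133 CPM after 2 weeks, 89.3, 223 and 179 CPM after 4 weeks, 226, 78.5 and 46.7 CPM in MYC livers and 484 and 389 CPM in MYC controls. Every induced liver lay below every control of either model. Fetub was lower after 4 weeks of YAP by -1.85 ± 0.57 (log2, adjusted p = 0.0319) and with MYC by -1.90 ± 0.57 (adjusted p = 0.0450), and after 2 weeks the difference of -1.87 ± 0.65 did not pass (adjusted p = 0.0578). The 4-week call was lost when scaled to total counts (-1.08, adjusted p = 0.113) and without 4-week library 1 (-1.55, adjusted p = 0.0893) or library 3, either YAP control, 2-week library 1 or MYC control 1, with no filter and with a replicate block. The MYC call had adjusted p of 0.00141 to 0.210 over the alternatives and was lost under 14 of them. Ahsg counts were 14.3 and 14.6 times Fetub counts in YAP controls and 27.0 to 34.6 times in the YAP livers. In MYC livers the ratio was 41.6 to 94.5, and in MYC controls 31.3 and 39.3.

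Serpina6 and Serpina7 encode the hormone carriers of the serpin family: corticosteroid-binding globulin and thyroxine-binding globulin. Serpina6 stood at 193 and 175 CPM in YAP controls, 18.4 and 6.58 CPM after 2 weeks, and 3.30, 269 and 99.4 CPM after 4 weeks. Both 2-week livers and 4-week library 1 lay far below the controls, and the other 4-week livers lay on either side of them. MYC livers stood at 563, 318 and 540 CPM and MYC controls at 303 and 322 CPM, with overlap. The 2-week difference of -3.89 ± 1.39 did not pass (adjusted p = 0.0663), and the 4-week difference was -0.57 ± 1.11 (adjusted p = 0.723). Without 4-week library 1 the 2-week difference passed (adjusted p = 0.00178), the 4-week difference was 0.00098, and the 4-week level was above the 2-week level by 3.89 (adjusted p = 0.0151). Library 1 of the 2-week group, which shares the sex pattern of the controls, gave a 2-week difference of -3.32 when taken alone.

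Serpina7 stood at 24.3 and 19.9 CPM in YAP controls, 23.3 and 42.6 CPM after 2 weeks, 25.2, 116 and 26.3 CPM after 4 weeks, 61.3, 33.4 and 11.7 CPM in MYC livers and 9.46 and 9.98 CPM in MYC controls. All MYC livers were above their controls. No difference passed: 0.58, 1.33 and 1.87 (adjusted p = 0.656, 0.233 and 0.159), and DESeq2 passed the MYC difference (1.88, adjusted p = 0.0312). Serpina7 is on the X chromosome, and 4 of the 5 YAP livers had the female pattern; the part of that pattern in the YAP values was not tested. The Serpina6 to Serpina7 ratio was 7.94 and 8.79 in YAP controls, 0.155 and 0.787 after 2 weeks, 0.131 to 3.78 after 4 weeks, 9.18 to 46.1 in MYC livers and 32.0 and 32.3 in MYC controls.

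Shbg, the carrier of sex steroids, had 459, 576 and 1089 counts in the MYC livers and 0 in both MYC controls. In the YAP model it had 0 counts in both controls, 0 and 4 after 2 weeks, and 0, 2 and 5 after 4 weeks. A count of 0 allows up to 3 counts, and no fold was computed from the YAP counts. MYC livers stood at 27.3, 40.4 and 63.2 CPM, a mean of 43.6 ± 18.2 (SD, n = 3). Set against a floor of 3 counts in each MYC control, which is 0.2495 CPM on average and covers counting error only, the mean was at least 175-fold higher. Shbg passed the filter on low counts through the MYC livers alone. Per kb of exon, Shbg at 29.0 CPM per kb in MYC livers exceeded Serpina7 at 14.5 and lay below Trf at 50.8. The Trf value is uncertain, because 63.5% of its exon bases are shared with Gm20425. In the MYC livers Shbg and the summed fetal liver markers (Afp, H19, Igf2, Gpc3 and Dlk1, at 28485, 36913 and 49120 CPM against 35.6 and 37.2 in MYC controls) had the same order over the 3 libraries, while Alb had the reverse order. With 3 libraries this is a description. The same fetal markers summed to 875 to 1676 CPM in the 5 YAP livers and to 7.63 and 11.7 CPM in their controls, with at most 5 counts of Shbg in any of them. The cell type that made Shbg RNA was not measured.

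The genes around Shbg were compared to see whether they moved with it. Atp1b2, which encodes a beta subunit of the sodium-potassium pump and lies 8.9 kb from Shbg on the same strand, had 638, 496 and 613 counts in MYC livers and 10 and 23 in MYC controls. Its log2 fold change with MYC was 4.73 ± 0.66 (adjusted p = 0.00151), and it was also higher after 4 weeks of YAP by 2.38 ± 0.63 (adjusted p = 0.0157), where Shbg had at most 5 counts. Sat2, 4.1 kb away on the other side, stood at 9.29, 8.62 and 10.3 CPM in MYC livers and 5.83 and 7.95 CPM in MYC controls, a difference of 0.45 ± 0.36 that did not pass (adjusted p = 0.434). Fxr2, the next gene on that side, was at -0.12 ± 0.16 (adjusted p = 0.663). Over all genes, 9.76% were called higher with MYC and 8.56% lower (3277 and 743 of 17964 genes with total counts). Of 11 neighbours tested, 3 were higher with MYC and none lower, with a median of 0.37 (4 and 0, with a median of 0.77, with total counts); the others called were Trp53, the tumour suppressor p53, at 0.79 ± 0.21 (adjusted p = 0.0247) and Cd68, a macrophage marker, at 2.39 ± 0.30 (adjusted p = 0.000817). The 7 macrophage markers, Cd68 among them, summed to 591 to 699 CPM in MYC livers and 256 to 261 CPM in MYC controls. They summed to 1506 and 1327 CPM after 2 weeks of YAP, 917, 492 and 421 CPM after 4 weeks and 267 and 261 CPM in YAP controls, and their part in the carrier values was not tested.

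**Figure D4:**
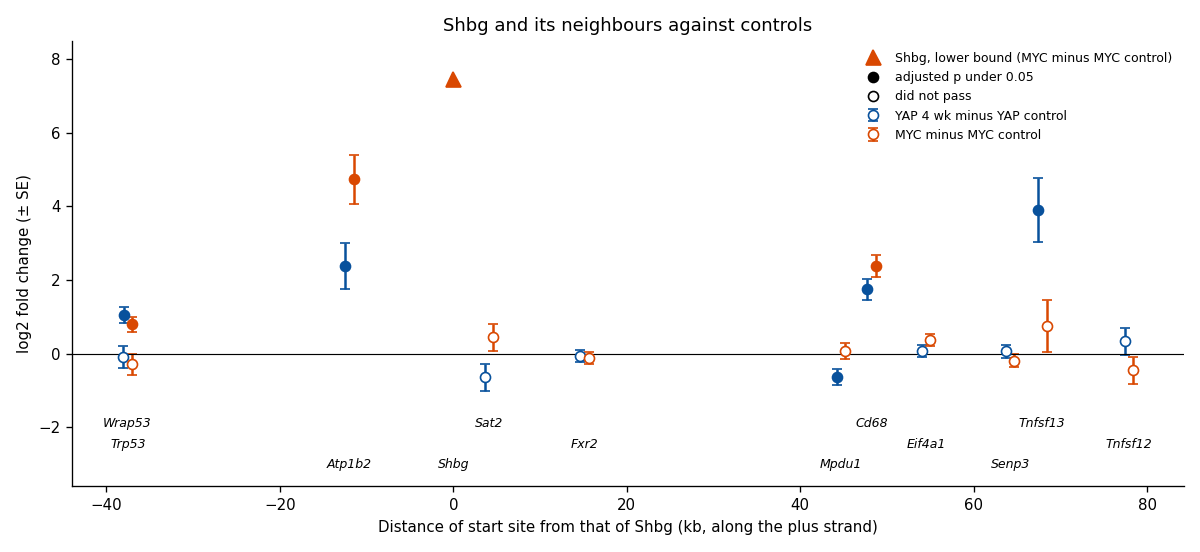
Log2 fold change of Shbg and 11 neighbouring genes against the distance of their start sites from that of Shbg in kb; bars are standard errors, filled points passed an adjusted p of 0.05, and the triangle is the lower bound for Shbg. With MYC, Atp1b2 at -12.0 kb had a value of 4.73, while Sat2 and Fxr2, at 4.1 and 15.1 kb, had 0.45 and -0.12.

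Between 4 and 2 weeks of YAP none of the 9 carriers passed (1 had an unadjusted p under 0.05, and DESeq2 called none), where 0% of all genes were called higher and 0.0612% lower. When the fold change with MYC was set against that after 4 weeks of YAP, none of the 9 passed (2 had an unadjusted p under 0.05, and DESeq2 called 1), against 3.15% of all genes called higher and 4.33% lower. Ttr came nearest, with a difference of 1.48 ± 0.42 on the log2 scale (adjusted p = 0.0569), and 0.00360 to 0.217 over the alternatives, of which DESeq2 gave the lowest. The lower values of Alb and Gc with MYC were not shown to differ from the 4-week YAP values (-1.16, adjusted p = 0.319, and -0.63, adjusted p = 0.420).

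Counts for the lists and clusters below stand beside the shares over all genes. After 2 weeks of YAP, 4 weeks and with MYC these were 12.7%, 15.7% and 8.56% called lower and 15.1%, 18.1% and 9.76% higher. With total counts 979, 897 and 743 of 17964 genes were lower and 5228, 7863 and 3277 higher. Without 4-week library 1, 2609, 2927 and 1951 of 17848 were lower and 3129, 3304 and 2134 higher. Leaving out 2-week library 2 leaves 1 library in that group, and fewer of all genes were then called after 2 weeks. List counts under these settings are therefore not read as results about the lists. Under TMM with all libraries, 9, 10 and 2 of 17 other carriers and binding proteins of plasma, such as haptoglobin, hemopexin and afamin, were lower in the same order. Of these 17 genes, 0, 0 and 2 were higher. Their median log2 fold changes were -1.26, -1.24 and -0.61. With total counts the lower calls were 5, 5 and 1, the higher calls 1, 1 and 2 and the medians -0.72, -0.50 and -0.22. Without library 2 of the 2-week group 1 was called lower after 2 weeks, with a median of -1.34 (11 lower and 1 higher without 4-week library 1). Hpx, the haem carrier hemopexin, was at 7489 ± 1540 CPM (SD, n = 2) in YAP controls and at 1774 ± 202 and 1839 ± 821 CPM after 2 and 4 weeks, log2 fold changes of -2.08 and -2.02 (adjusted p = 0.00715 and 0.00331; without 2-week library 2 the 2-week value was -1.96, adjusted p = 0.0601), and did not pass with MYC (0.19). Afm, the vitamin E carrier afamin of the albumin cluster, was lower in all 3 comparisons (-1.26, -1.67 and -0.98, adjusted p = 0.0114, 0.00114 and 0.0288), and the 2-week and MYC calls were lost with total counts, and the 2-week call also without 2-week library 2, where the fold change was -1.34. Afp, the fetal counterpart of albumin, rose with MYC from 11.8 ± 0.07 to 4369 ± 1888 CPM (8.53 on the log2 scale, adjusted p = 0.00371). Afp counts came to 0.0853, 0.285 and 0.360 of Alb counts in the MYC livers and to at most 0.00104 elsewhere. Lcn2, a carrier of bacterial siderophores made in inflammation, was higher with MYC (4.47) and lower after 2 weeks of YAP (-2.07, lost with total counts). Controls differed between the models for several of these genes, with no test made between them. Hpx was at 2005 ± 123.5 CPM in MYC controls and 2280 ± 780 CPM in MYC livers, below the YAP controls and near the YAP livers. In YAP and MYC controls, Hp (haptoglobin) was at 6938 ± 1009 and 1227 ± 106 CPM and Lcn2 at 840 ± 637 and 6.50 ± 1.81 CPM. Afm went the other way, at 201 ± 16.5 and 385.5 ± 6.05 CPM. Cp, the copper carrier ceruloplasmin, was at 0.95 and 0.70 with YAP and did not pass, and passed when scaled to total counts (1.47 and 1.41).

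Of 11 tested receptors and handling genes, 0, 1 and 3 were higher and 4, 5 and 3 lower after 2 weeks, 4 weeks and with MYC, with medians of -0.32, -0.44 and -0.70 (1, 2 and 3 higher and 2, 3 and 3 lower with total counts; 1 lower after 2 weeks without library 2; the YAP medians were 0.21 and 0.28 with total counts). Tfrc, the transferrin receptor of dividing cells, rose with MYC from 23.8 ± 3.22 to 279 ± 156 CPM (3.55, adjusted p = 0.00219), while its ligand gene Trf did not pass. Tfr2, the iron-sensing transferrin receptor of hepatocytes, was lower with YAP (-1.14 and -1.35, the former lost with total counts, at -0.62, or without 2-week library 2, at -1.00). Stra6l, the liver receptor for retinol-binding protein, fell in all 3 comparisons by 1.42, 1.25 and 1.15 (adjusted p = 0.000611, 0.000480 and 0.00196). Cubn, a receptor that takes up Gc and Trf in the kidney, was higher with MYC (5.73 ± 1.37, adjusted p = 0.0163) at a level of 4.83 CPM.

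The 19 transcription factors known to act on carrier genes had 1, 1 and 0 higher and 4, 5 and 7 lower calls, with medians of -0.52, -0.41 and -0.63. With total counts they had 1, 5 and 1 higher and 3, 2 and 4 lower, with medians of 0.01, 0.35 and -0.23, and without 2-week library 2 the 2-week calls were 0 higher and 1 lower. Cebpa, which encodes C/EBP alpha, was lower in all 3 (-1.41, -1.28 and -1.03, adjusted p = 0.00162, 0.00115 and 0.00773), also with total counts. Hnf4a stood at 712 ± 37.4 CPM in YAP controls and 420 ± 55.3 CPM after 4 weeks (-0.76, adjusted p = 0.0248), and at 664 ± 12.8 CPM in MYC controls and 365 ± 49.0 CPM in MYC livers (-0.86, adjusted p = 0.0240); with total counts neither passed (-0.03 and -0.46). Ppara, the fatty acid receptor of hepatocytes, was lower in all 3 (-1.26, -1.35 and -1.34), and with total counts by less (-0.74, -0.62 and -0.96). Its 2-week call was lost without 2-week library 2 (-1.06, adjusted p = 0.0599). Summed cholangiocyte markers stood at 396 to 3074 CPM in the YAP livers and at 105 to 116 CPM in their controls, and their part in these counts was not tested.

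Genes that handle the ligands were counted beside their carriers. Of 8 thyroid hormone genes, 6, 7 and 6 were lower and none higher after 2 weeks, 4 weeks and with MYC, with medians of -1.97, -2.24 and -1.36 (4, 4 and 5 lower and 0, 1 and 0 higher, with medians of -1.48, -1.51 and -0.96, with total counts; 2 lower after 2 weeks without library 2). Dio1, the deiodinase that makes active thyroid hormone in liver, was at 234 ± 26.6 CPM in YAP controls and 1.75 ± 0.44 and 4.90 ± 4.78 CPM after 2 and 4 weeks, and at 142 ± 7.04 CPM in MYC controls and 7.69 ± 7.40 CPM in MYC livers; without 2-week library 2 the 2-week fold change was -6.82, beside -7.07 with it, and did not pass (adjusted p = 0.0699). Me1, a thyroid hormone target in lipid synthesis, was lower by -3.43, -2.77 and -2.72. Of 8 glucocorticoid genes, 3 were higher and 2 lower at both YAP times, and 1 was lower with MYC, with medians of -0.03, -0.10 and -0.92 (3, 4 and 1 higher and 1, 1 and 1 lower, with YAP medians of 0.48 and 0.62, with total counts; 1 lower after 2 weeks without library 2, and 2 with MYC without 4-week library 1). The 3 higher were Fkbp5, Per1 and Sgk1, known targets of the glucocorticoid receptor, at 2.98, 2.65 and 2.84 after 2 weeks and 2.42, 2.28 and 2.43 after 4 weeks. Srd5a1 was among the lower, at -3.38 and -3.18. Serpina6, the carrier of the same hormone, was lowest in the 2-week livers and in 4-week library 1. In 4-week libraries 2 and 3 it was at 269 and 99.4 CPM. Every 4-week library had at least 65.0 CPM of Fkbp5, 105 of Per1 and 55.5 of Sgk1. YAP controls had at most 24.1, 30.3 and 21.3 CPM. A link between the carrier and these genes was not tested. Of 9 sex steroid genes, 5, 5 and 3 were lower and none higher, with medians of -3.04, -1.27 and -1.93 (4, 2 and 3 lower and 1, 2 and 0 higher, with medians of -2.50, -0.51 and -1.65, with total counts; 2 lower and 1 higher after 4 weeks without 4-week library 1; 3 lower and 1 higher after 2 weeks without library 2). Cyp7b1, a steroid hydroxylase with higher levels in male mouse liver, was at 746 ± 9.20 CPM in YAP controls and 4.26 ± 4.50 and 2.95 ± 2.06 CPM after 2 and 4 weeks. It was at 78.25 ± 15.04 CPM in MYC controls and 1.39 ± 1.90 CPM in MYC livers. The 2-week libraries, of which only library 1 shares the sex pattern of the controls, were at 1.08 and 7.44 CPM. All 4-week libraries had the female pattern, and its part in the YAP values was not tested.

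Retinoid genes (9 tested) had 0, 1 and 0 higher and 2, 3 and 2 lower, iron genes (10 tested) had 1, 1 and 0 higher and 4, 5 and 2 lower, and vitamin D genes (5 tested) had 0, 0 and 1 higher and 0, 2 and 2 lower. Their medians were -0.35, -0.79 and -1.19, then -0.47, -0.66 and -0.59, then -0.71, -0.91 and -0.32. With total counts these were 2, 3 and 0 higher and 1, 0 and 2 lower, 4, 2 and 0 higher and 1, 1 and 1 lower, and 0, 1 and 1 higher and 0, 1 and 2 lower. The total-count medians were 0.13, -0.07 and -0.83 for retinoid genes, 0.05, 0.06 and -0.19 for iron genes and -0.19, -0.15 and 0.08 for vitamin D genes. Without 2-week library 2, retinoid, iron and vitamin D genes had 1, 0 and 0 lower after 2 weeks, iron genes had 1 lower with MYC and vitamin D genes 1 lower after 4 weeks; without 4-week library 1, retinoid genes had 4 lower with MYC. Bmp6, the iron signal that induces hepcidin, was higher with YAP (3.38 and 3.65). Cyp2r1, the hepatic 25-hydroxylase of vitamin D, was lower with MYC (-3.30, adjusted p = 0.00219).

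In the serpin cluster that holds Serpina6, 10, 11 and 6 of 14 tested genes were lower and none higher after 2 weeks, 4 weeks and with MYC, with medians of -1.76, -1.72 and -1.67 (8, 7 and 6 lower, with medians of -1.27, -1.01 and -1.26, with total counts, and 4 after 2 weeks without library 2). Serpina3k, a protease inhibitor of mouse plasma, fell from 8659 ± 144 CPM in YAP controls to 341 ± 158 and 167 ± 50.2 CPM, and from 9280 ± 955 CPM in MYC controls to 271 ± 293 CPM. Its 2-week fold change was -4.67, and -4.25 without 2-week library 2, where it did not pass (adjusted p = 0.0546). Serpina1a and Serpina1c, copies of the alpha-1-antitrypsin gene between which reads may be split, were lower in all 3 comparisons. With total counts the calls of Serpina1c held, while Serpina1a did not pass with YAP (-0.33 and -0.54, adjusted p = 0.296 and 0.0548), nor after 2 weeks without 2-week library 2 (-0.69, adjusted p = 0.146). Serpina6 itself was not among the genes called. In the albumin cluster, Alb and Gc included, 2, 2 and 3 of 7 genes were lower and 0, 0 and 1 higher, and Afp was the gene that rose (0, 1 and 2 lower and 0, 1 and 1 higher with total counts, none after 2 weeks without library 2); the medians were -0.19, -0.49 and -0.20, and 0.30, 0.20 and 0.21 with total counts. In the fetuin cluster, Ahsg and Fetub included, 2, 3 and 1 of 9 genes were lower and 1, 0 and 1 higher, with medians of -0.53, -0.68 and -0.50 (1, 1 and 0 lower and 3, 1 and 1 higher, with medians of -0.02, 0.06 and -0.09, with total counts; 1 lower after 2 weeks and none with MYC without 2-week library 2; 3 lower with MYC without 4-week library 1).

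For each carrier, the named genes with the smallest root-mean-square difference of centred log2 CPM over the 12 libraries, out of 12850, were listed; this measure is 0 for identical patterns. Gc had the closest partners, Tex264, Xylt2 and Rxra at 0.123, 0.125 and 0.147, where its own spread was 0.567. Ttr was followed by Rgn, Ero1lb and C1rl at 0.228 to 0.260, against a spread of 1.14. Serpina7 was nearest to Ifit3, Rtp4 and Xaf1, genes induced by interferon (0.491 to 0.598). Shbg was nearest to Bex2, Rhag and Add2 (0.566 to 0.627, against a spread of 3.43), and the last 2 encode proteins of the red blood cell membrane. Among the carriers themselves, Rbp4 and Gc lay closest together (0.303) and Shbg lay 3.14 to 4.24 from each of the others. Shbg was chosen for its high counts in MYC livers, so its distances and nearest genes rest on those same values. All these values share libraries, depth and group structure and carry no test.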

How the data were processed

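RNA-seq read counts per gene were deposited by the authors for each of the 12 libraries, as whole numbers with no normalization. Per the submitters' processing notes, Trim Galore 0.4.1, HISAT2 2.1.0, featureCounts 1.6.3 and DESeq2 1.20.0 were used with GRCm38 (mm10); the annotation release, strand setting and treatment of multiply mapped reads are not given in the sources used here. Totals were 12511170 to 17690798 counts per library, and intervals and floors cover counting error only.

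In R 4.3.3, edgeR 4.0.16 filtered genes with filterByExpr (17964 tested), scaled libraries by TMM (factors 0.742 to 1.348) and fitted 1 robust quasi-likelihood model to the 5 groups (7 residual degrees of freedom, a common biological coefficient of variation of 31.5%). The 5 contrasts were 2 and 4 weeks of YAP against their controls, 4 against 2 weeks, MYC against its controls, and the MYC effect minus the 4-week YAP effect. P-values were adjusted by Benjamini-Hochberg over all genes tested, with a threshold of 0.05. Per-length levels divide CPM by the exon union of each gene in GENCODE vM21, in which 46338 of 48576 symbols (95.4%) match 1 gene. Promoters came from the RefSeq table of GRCm38.p6. Scripts were tested on simulated data.

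The alternatives were total-count scaling, DESeq2 size factors, DESeq2 1.42.0, no filter, a stricter filter, a replicate block, scaling without mitochondrial and carrier genes, each model fitted alone, and leaving out each library; where that leaves 1 library in a group, it is assumed to vary like the other groups. The text names all 10 carriers, for each context list up to 4 genes with the smallest p-values plus a preset few (Afp, Afm, Hp, Hpx, Cp, Hnf4a, Cebpa, Tfrc, Tfr2, Stra6l, Sat2 and Fxr2), and for likeness 3 genes per carrier; some of these are not reported here. The members and lists were chosen with earlier results of these data known.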

Additional observations from a re-analysis of the deposited data

How the results depend on the processing

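The calls of Ttr after 2 and 4 weeks of YAP held under each of the 20 alternatives run. Calls over all genes depended on the setting. After 2 weeks they were 4993 of 17964, against 6207 of 17964 with total counts and 4452 of 17012 with each model alone. DESeq2 called 5645 of 30910 there and the stricter filter 4129 of 10468. After 4 weeks they were 6073 of 17964, against 5295 of 30910 with no filter and 5058 of 17964 with the replicate block. Counts of carriers called also depended on the setting. After 2 weeks 1 was called, against 2 with total counts or each model alone, 3 with DESeq2 or the stricter filter, and 1 to 3 when 1 library was left out. After 4 weeks 2 were called, against 1 with no filter or with the replicate block, and 1 to 3 with 1 library left out. With MYC 3 were called, against 6 with DESeq2, 2 with the replicate block and 0 to 6 with 1 library left out; over all genes DESeq2 called 4081 of 30910 there, the replicate block 2636 of 17964, and the fits with 1 library left out 792 to 4192. Between 4 and 2 weeks the count was 0 to 1 with 1 library left out. For the difference between models 0 were called, against 1 with total counts, DESeq2, no filter, the stricter filter or the replicate block, and 0 to 1 with 1 library left out. Over all genes, calls for that difference were 1344 of 17964, against 1530 of 17964 with total counts and 2350 of 30910 with DESeq2. They were 1408 of 30910 with no filter, 1329 of 10468 with the stricter filter and 1329 of 17964 with the replicate block. With total counts, values changed sign for Rbp4 (0.38) and Gc (0.19) after 2 weeks and for Alb (0.20), Rbp4 (0.14), Gc (0.078), Ahsg (0.049) and Serpina6 (0.21) after 4 weeks. With 1 library left out, Rbp4 after 2 weeks ran from -0.50 to 0.18, Trf after 4 weeks from -0.15 to 0.65 and Serpina6 after 4 weeks from -1.84 to 0.00098. The cause was not tested. DESeq2 size factors, and scaling without mitochondrial and carrier genes, changed no call of a carrier. Over all genes, 4993 calls after 2 weeks became 2445 without 2-week library 2, 6073 after 4 weeks became 3324 without YAP control 2, 3291 with MYC became 792 without MYC control 1 and 4192 without MYC library 1, and 1344 for the difference became 338 without MYC control 2 and 2350 with DESeq2. Between 4 and 2 weeks 11 became 501 without 4-week library 1, 77 with DESeq2, 42 with no filter, 3 with total counts and 0 in the YAP model alone. Of 21 pairs of libraries with the same replicate number, 3 had a correlation of deviations from group means over 0.1 (-0.14 to 0.17). In groups of 2 the deviations mirror each other, so some pairs repeat a value. Whether a number marks a shared litter, day or batch was not tested. At these depths a count of 0 allows up to 0.318 CPM.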
